A study of Homo sapiens with 6 samples.

Results

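The transcripts described here encode the ligands and receptors of the epidermal growth factor (EGF) receptor family, in U87 glioblastoma cells with and without silencing of Caspase-8. The 10 genes were taken by their symbols, and all 10 are among the 23290 genes of the deposited table. They are the ligand genes EREG, AREG, TGFA, HBEGF, BTC and NRG1, the receptor genes EGFR, ERBB2 and ERBB3, and ERRFI1, which encodes an inhibitor of the receptors. The shC8 group consisted of 3 libraries from cells in which a retroviral vector silenced Caspase-8. The shCTR group consisted of 3 libraries from cells infected with a retroviral scramble vector. The labels name no other silencing vector and no cells with Caspase-8 restored. Effects of losing Caspase-8 and other effects of the silencing vector therefore cannot be told apart. All cells came from the single established line U87, grew in DMEM with 10% serum and were infected with retrovirus, and no uninfected cells were measured. The series calls the 3 libraries of a group biological replicates, but nothing states that they came from separate infections, so the spread that p-values rest on may be technical.

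Ligands of this family are made as membrane-anchored precursors that proteases of the ADAM family cut free. A freed ligand makes receptors pair and phosphorylate each other, and the pairs then drive the RAS, ERK and PI3 kinase pathways. EGFR is among the genes most often amplified in glioblastoma. Several of the ligand genes and ERRFI1 are themselves known targets of the signalling they start or restrain.

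EREG showed the largest change of the 10 genes and TGFA the next, while EGFR, the only receptor above 1 FPKM, did not pass the test. The starts of these 3 genes are printed because they stand for that contrast. Each is the window from 250 bases before to 50 after the RefSeq gene start in build GRCh38.p14, on the gene's own strand: EREG at chr4:74364895-74365194 (plus), TGFA at chr2:70553777-70554076 (minus) and EGFR at chr7:55018767-55019066 (plus). For TGFA and EGFR the table lists another window as well, which is not printed. Capitals mark matches on either strand to the TATA box (TATAAA), the AP-1 site (TGANTCA), the cAMP response element (TGACGTCA) and its short form (TGACG), which lies within it, the GC box (GGGCGG), the E-box (CACGTG), and the NF-kB and CArG consensus sites.
EREG: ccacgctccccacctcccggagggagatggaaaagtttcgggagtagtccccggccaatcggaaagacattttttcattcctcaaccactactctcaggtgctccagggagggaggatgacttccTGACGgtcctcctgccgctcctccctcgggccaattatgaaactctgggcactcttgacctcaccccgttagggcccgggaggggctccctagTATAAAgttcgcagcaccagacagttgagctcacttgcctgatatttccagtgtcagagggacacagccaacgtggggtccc
TGFA: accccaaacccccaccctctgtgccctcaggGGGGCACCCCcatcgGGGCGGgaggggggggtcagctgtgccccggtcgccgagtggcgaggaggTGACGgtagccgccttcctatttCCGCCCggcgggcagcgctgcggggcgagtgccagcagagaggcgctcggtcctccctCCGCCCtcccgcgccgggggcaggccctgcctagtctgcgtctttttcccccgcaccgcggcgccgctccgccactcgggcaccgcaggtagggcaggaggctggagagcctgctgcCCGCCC
EGFR: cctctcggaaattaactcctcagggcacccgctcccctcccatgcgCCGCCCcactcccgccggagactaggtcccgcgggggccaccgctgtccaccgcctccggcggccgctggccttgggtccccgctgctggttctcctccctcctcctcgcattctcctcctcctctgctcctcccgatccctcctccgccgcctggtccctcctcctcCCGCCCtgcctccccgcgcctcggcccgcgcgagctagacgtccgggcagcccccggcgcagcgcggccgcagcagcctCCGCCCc

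The EREG window held a TATA box that begins 32 bases before the start, a motif found in 11.5% of 35116 RefSeq windows of this length. It also held 1 short form of the cAMP response element, found in 24.6% of windows. The TGFA window printed held 4 GC boxes, 1 short form of the cAMP response element and 1 match to the NF-kB consensus. These motifs are present in 45%, 24.6% and 5.91% of windows. The other TGFA window, with a GC content of 63%, held none of the marked motifs. The EGFR window printed held 3 GC boxes and none of the other motifs, while the other EGFR window held 2 TATA boxes and 2 AP-1 sites, the AP-1 motif being in 7.71% of windows. The GC content of the printed windows was 57.7% for EREG and 75.3% for both TGFA and EGFR, against a median of 58.7% over all windows. Of the 10 genes, 8 were found in the RefSeq table. These matches describe letters and were not tested against the expression values.

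Values are FPKM (fragments per length of transcript and per sequenced total) as deposited, 1 per gene and library. The columns summed to between 489055 and 516634 FPKM, and the absolute depth is unknown. CASP8, the silenced gene, was 4.39, 4.46 and 4.44 FPKM in shC8 and 15.1, 14.9 and 13.4 FPKM in shCTR, which leaves 30.6% of the control level. Testing used limma on log2(FPKM + 1), for genes that averaged 1 FPKM or more, and a gene was called where its p, adjusted by Benjamini and Hochberg, was under 0.05. Of 11598 tested genes 1401 (12.1%) were called, and 3086 with the replicate number as a block. The count was between 477 and 840 when shCTR 1, shCTR 2, shCTR 3, shC8 2 or shC8 3 was left out. All 7 listed markers of mesenchymal glioblastoma cells were above the filter (3 called higher and 1 lower in shC8), VIM at 3785 ± 126 FPKM in shC8 and 4318 ± 464 FPKM in shCTR (SD, n = 3 each). The glial markers GFAP and S100B were under 0.3 FPKM in each library, and AQP4 and OLIG1 were listed at 0 in all of them. The glial glutamate transporter gene SLC1A3 was lower in shC8, at 5.21 ± 0.849 FPKM in shC8 and 10.9 ± 1.66 FPKM in shCTR (SD, n = 3 each), and its list of 4 glial markers summed to between 4.81 and 6.42 FPKM in shC8 and between 9.27 and 12.0 FPKM in shCTR. The part of these markers in the results was not tested. The 5 epithelial markers summed to between 0.989 and 1.31 FPKM in shC8 and between 0.898 and 1.52 FPKM in shCTR. The 3 endothelial markers summed to between 0.109 and 0.161 FPKM in shC8 and between 0.161 and 0.26 FPKM in shCTR. The 5 immune markers summed to between 135 and 152 FPKM in shC8 and between 148 and 157 FPKM in shCTR, nearly all of it CD68, a lysosomal gene, with CD3E and MS4A1 listed at 0. In bulk RNA, fewer cells that express a gene and less RNA per cell cannot be told apart.

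Of the 10 genes, 6 passed the filter, and 3 of these fell in shC8: EREG, TGFA and NRG1. None of the 6 rose under limma, and HBEGF, EGFR and ERRFI1 did not pass the test. Falls made up 4.94% and rises 7.14% of all tested genes (573 and 828). That balance turned with the scaling, to 820 falls and 621 rises under median-of-ratios scaling and 731 and 715 under quantile normalization, while the 3 calls among the 10 genes were still 3 falls under both. The 4 genes under the filter were AREG, BTC, ERBB2 and ERBB3. All 3 falls were ligand genes, among 4 ligand genes tested, and the only tested receptor gene was EGFR. With the replicate number as a block, HBEGF and ERRFI1 were called lower as well, so that 5 of the 6 were called, where the block called 26.6% of all tested genes and 10.6% as lower. Without shCTR 1, shCTR 2, shC8 2 or shC8 3 the count was 2, since NRG1 lost its call.

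**Figure D1:**
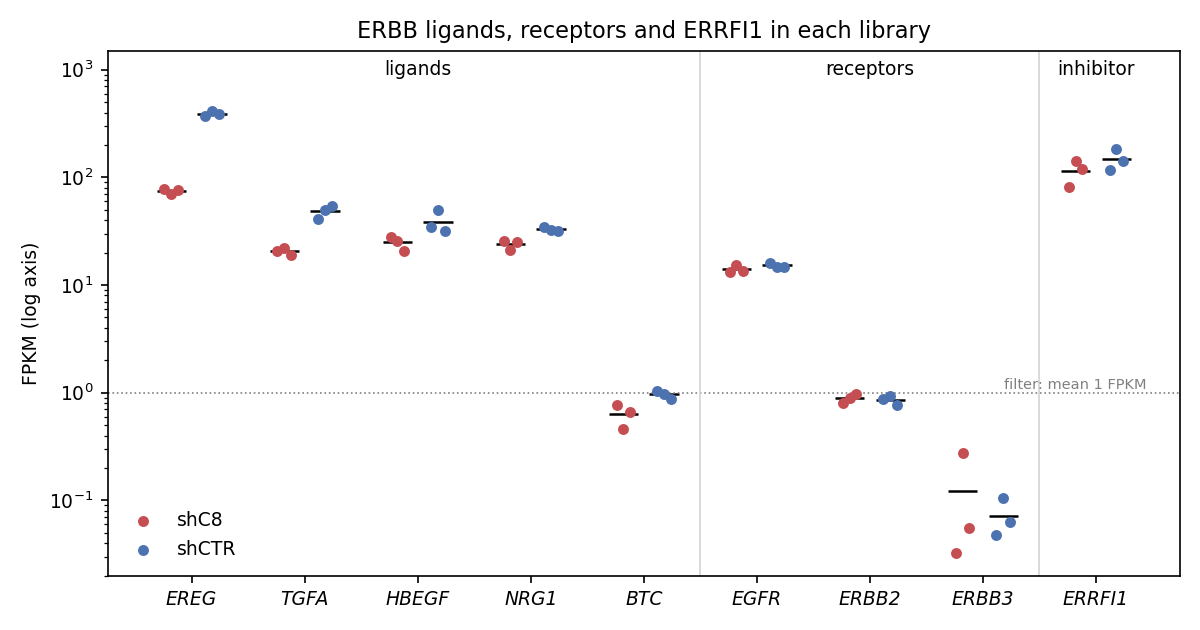
FPKM (log axis) of 9 of the 10 genes in each library, with shC8 in red left of shCTR in blue; each point is 1 library, each bar a mean, and AREG, listed at 0 throughout, is not drawn. EREG, TGFA, HBEGF, NRG1 and BTC lay lower in all 3 shC8 libraries than in any shCTR library, while EGFR, ERBB2, ERBB3 and ERRFI1 overlapped.

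EREG (ENSG00000124882, plus strand of chromosome 4, 74365143 to 74388751, GENCODE 29) encodes epiregulin, a ligand of EGFR and ERBB4. Its level was 78.3, 69.8 and 76.0 FPKM in shC8 1, 2 and 3, against 373, 412 and 389.6 FPKM in shCTR 1, 2 and 3. Every shC8 library lay far below every shCTR library. The means were 74.7 ± 4.35 FPKM in shC8 and 392 ± 19.3 FPKM in shCTR (SD, n = 3 each), a remainder of 19.1%. The log2 change was -2.38 (SE 0.0722, 95% interval -2.54 to -2.21, limma adjusted p = 2.57e-05). This was the lowest p of the 11598 tested genes, and by size the change ranked 9 among the falls. The spread between libraries was small in both groups, with coefficients of variation of 5.83% in shC8 and 4.94% in shCTR. By mean level EREG ranked 1180 in shC8 and 159 in shCTR among all genes of the table. The change was -2.24, -2.54 and -2.34 in the pairs of same-numbered libraries. For EREG, and likewise for TGFA, HBEGF, NRG1 and BTC, the exact two-sided permutation p over the 6 libraries was 0.1, below which this design cannot go.

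TGFA (ENSG00000163235, minus strand of chromosome 2, 70447280 to 70554193) encodes transforming growth factor alpha, a ligand that binds EGFR alone. It stood at 20.8, 22.0 and 19.0 FPKM in shC8 1, 2 and 3, against 41.3, 50.1 and 53.8 FPKM in shCTR 1, 2 and 3. The gap between the highest shC8 and the lowest shCTR library was wider than the range within either group. The mean was 20.6 ± 1.51 FPKM in shC8 and 48.4 ± 6.45 FPKM in shCTR (SD, n = 3 each), 2.35-fold lower. The log2 change was -1.19 (SE 0.106, limma adjusted p = 0.00173). TGFA and EREG kept their calls in each of the 14 alternative fits, with the highest limma adjusted p at 0.0125 for TGFA and 0.000959 for EREG.

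NRG1 (ENSG00000157168, plus strand of chromosome 8, 31639386 to 32767959) encodes neuregulin 1, a ligand of ERBB3 and ERBB4 and not of EGFR. It was 25.6, 21.3 and 25.4 FPKM in shC8 1, 2 and 3, against 34.97, 32.4 and 31.5 FPKM in shCTR 1, 2 and 3. The groups did not overlap, and the drop was modest beside those of EREG and TGFA. The mean was 24.1 ± 2.43 FPKM in shC8 and 33.0 ± 1.8 FPKM in shCTR (SD, n = 3 each). On the log2 scale NRG1 differed by -0.44 with an SE of 0.0866 (limma adjusted p = 0.0206). Leaving out shC8 2 or shC8 3 brought its limma adjusted p to 0.0505 or 0.0552, and leaving out shCTR 1 or shCTR 2 brought it to 0.0698 or 0.0615. The receptors that bind neuregulins were barely measured, with ERBB4 at 0.00908 FPKM in shC8 and 0.0103 FPKM in shCTR on average and ERBB3 described below.

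HBEGF (ENSG00000113070, minus strand of chromosome 5, 140332843 to 140346631) encodes heparin-binding EGF-like growth factor, which binds EGFR and ERBB4. Its values were 28.1, 25.5 and 20.9 FPKM in shC8 1, 2 and 3, against 34.6, 49.8 and 31.9 FPKM in shCTR 1, 2 and 3. The groups did not overlap, but shCTR 2 stood well above the other 2 control libraries. Its log2 change of -0.60 (SE 0.175, 95% interval -1.01 to -0.20) did not pass, with a limma adjusted p of 0.0636. With the replicate number as a block the limma adjusted p of HBEGF was 0.0171. Non-overlap is common in these data: it was seen for 34.8% of tested genes, and for 13.1% with shC8 lower, beside 4 of the 6 tested genes described here.

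BTC (ENSG00000174808, minus strand of chromosome 4, 74744759 to 74794686), the gene of betacellulin, another ligand of EGFR and ERBB4, was under the filter. It was listed at 0.766, 0.457 and 0.669 FPKM in shC8 1, 2 and 3, against 1.05, 0.973 and 0.874 FPKM in shCTR 1, 2 and 3. Fitted without a filter, its log2 change was -0.27 (limma adjusted p = 0.124). AREG (ENSG00000109321, chromosome 4, 74445134 to 74455009), the gene of amphiregulin, was listed at 0 in all 6 libraries. In a table without counts a listed 0 can be a failed estimate, so the level of AREG is not known here.

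EGFR (ENSG00000146648, plus strand of chromosome 7, 55019021 to 55211628) was 13.3, 15.3 and 13.4 FPKM in shC8 1, 2 and 3, against 16.0, 14.9 and 14.8 FPKM in shCTR 1, 2 and 3. The groups overlapped, with shC8 2 above shCTR 2 and shCTR 3. The mean was 14.0 ± 1.12 FPKM in shC8 and 15.2 ± 0.684 FPKM in shCTR (SD, n = 3 each). The log2 change was -0.12 with a 95% interval of -0.29 to 0.06 (limma adjusted p = 0.343), and it did not pass in any of the 14 alternative fits. ERBB2 (ENSG00000141736, chromosome 17, 39687914 to 39730426), which binds no ligand and serves as a partner of the other receptors, was 0.798, 0.902 and 0.966 FPKM in shC8 1, 2 and 3. In shCTR 1, 2 and 3 it was 0.873, 0.925 and 0.77 FPKM, so the groups overlapped. ERBB3 (ENSG00000065361, chromosome 12, 56076799 to 56103505), a neuregulin receptor with little kinase activity of its own, was 0.0323, 0.277 and 0.055 FPKM in shC8 and 0.0475, 0.106 and 0.0629 FPKM in shCTR. Fitted without a filter, the log2 changes of ERBB2 and ERBB3 were 0.02 and 0.06 (limma adjusted p = 0.850 and 0.732).

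ERRFI1 (ENSG00000116285, minus strand of chromosome 1, 8004404 to 8026308) encodes MIG6, which binds the kinase domain of EGFR and blocks it, and whose transcript EGFR signalling is known to induce. It was 81.5, 142 and 119.7 FPKM in shC8 1, 2 and 3, against 118, 185 and 142 FPKM in shCTR 1, 2 and 3. The groups overlapped, and each shC8 library lay below the shCTR library of the same number. Library 1 was the lowest and library 2 the highest in both groups. The log2 change of -0.39 (SE 0.225) did not pass, with a limma adjusted p of 0.294. It was -0.16 without shC8 1 and -0.22 without shCTR 2, against -0.56 without shC8 2, and passed in none of the 6 fits that leave out a library. With the replicate number as a block the SE was 0.0651 and the limma adjusted p of ERRFI1 was 0.0111. The columns carry numbers in their names, which form a lower range (shC8 1, shCTR 1 and shCTR 3) and an upper one (shC8 2, shC8 3 and shCTR 2), and what these numbers stand for is not stated. The ERRFI1 difference was -0.66 among the lower-numbered and -0.50 among the upper-numbered columns, and -0.58 with the range as a term (limma adjusted p = 0.0192).

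Within the lower and upper ranges, the EREG change was -2.27 and -2.48. The TGFA change was -1.14 and -1.25, and the NRG1 change was -0.36 and -0.46. HBEGF differed most between them, at -0.23 and -1.08, and EGFR stood at -0.20 and -0.05. The changes were thus negative in both ranges for each of these genes, and 1 group had only 1 library in each range, so no test was made there.

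**Figure D2:**
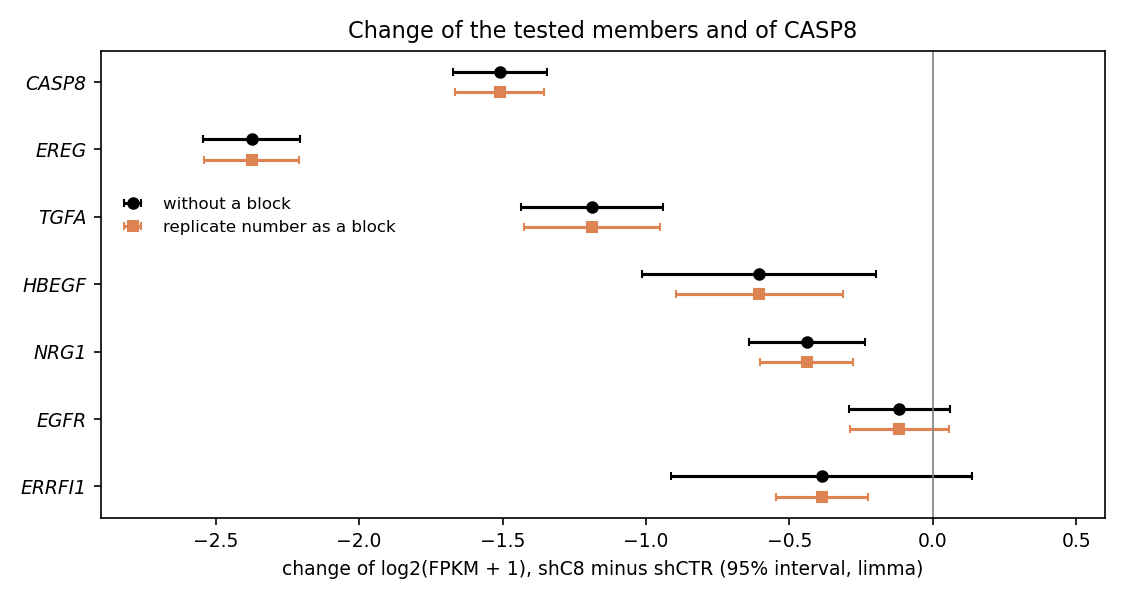
Change of log2(FPKM + 1), shC8 minus shCTR, for CASP8 and the 6 tested genes, with 95% intervals from limma, black without a block and orange with the replicate number as a block. The intervals of EREG, TGFA, HBEGF and NRG1 lie below 0 in both fits, that of EGFR spans 0 in both, and that of ERRFI1 spans 0 only without the block.

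Ligand transcripts far outweighed receptor transcripts in both groups, and less so in shC8. FPKM is scaled by length, so levels can be summed across genes. The 6 ligand genes summed to 154, 139 and 142 FPKM in shC8 1, 2 and 3, against 485, 545 and 508 FPKM in shCTR 1, 2 and 3. The 3 receptor genes summed to 14.1, 16.5 and 14.5 FPKM in shC8 and to 16.9, 15.9 and 15.7 FPKM in shCTR. The ligand sums were therefore apart by more than the spread within either group, and the receptor sums overlapped. The ratio of the sums was 9.72 ± 1.23 in shC8 and 31.8 ± 2.9 in shCTR (SD, n = 3 each). AREG adds nothing to these sums because it was listed at 0.

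EREG accounted for 86.2% of the drop in the mean ligand sum, TGFA for 7.56%, HBEGF for 3.78% and NRG1 for 2.41%. EREG made up 51.6% ± 1.76 of the ligand sum in shC8 and 76.4% ± 0.744 in shCTR (SD, n = 3 each). The shares of the other 3 well-measured ligands were higher in shC8: 14.2% against 9.43% in shCTR for TGFA, 17.1% against 7.52% for HBEGF and 16.6% against 6.45% for NRG1. These shares add to a fixed total, so they rise where EREG falls. Without EREG the ligand sum was 70.2 ± 4.79 FPKM in shC8 and 121 ± 10.9 FPKM in shCTR, 1.73-fold lower. EGFR made up at least 92.8% of the receptor sum in each library.

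**Figure D3:**
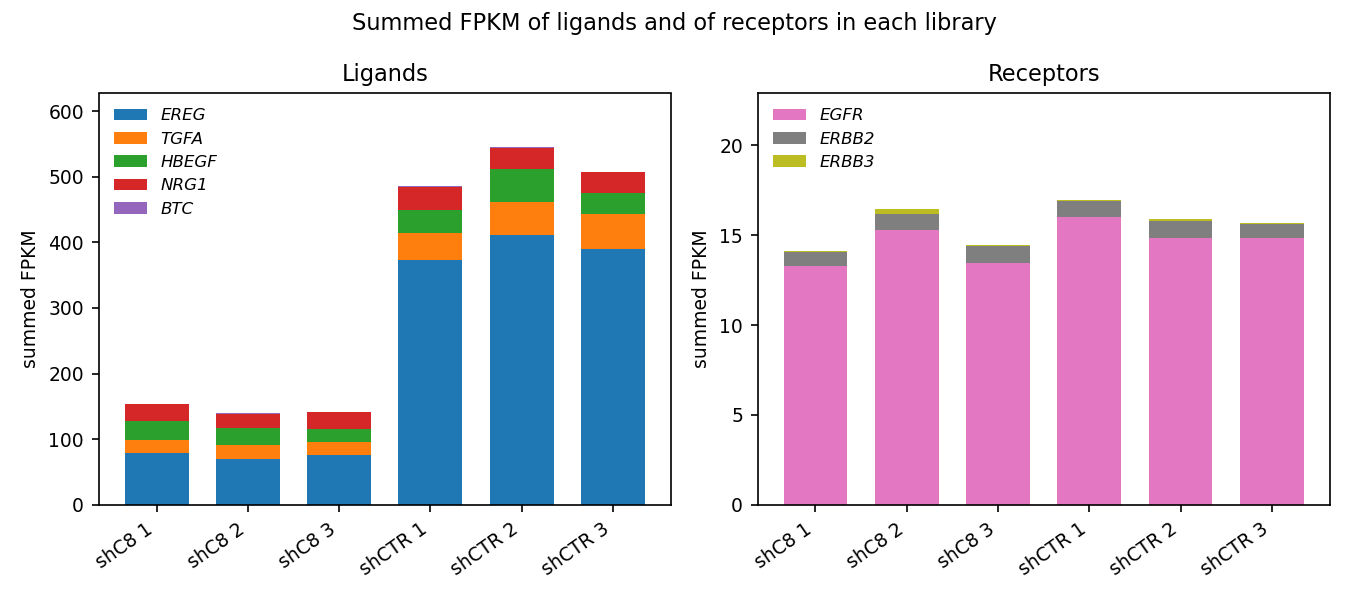
Summed FPKM of the ligand genes (left) and receptor genes (right) in each library, shC8 left of shCTR, with each gene as a coloured segment; the axes of the panels differ in scale. The ligand stack is 139 to 154 FPKM in shC8 and 485 to 545 FPKM in shCTR, with EREG as the largest segment, and the receptor stacks lie between 14.1 and 16.9 FPKM.

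Each ligand was also set against EGFR in the same library, which removes any scaling of whole columns. The EREG level was 5.9, 4.57 and 5.65 times that of EGFR in shC8 1, 2 and 3, against 23.3, 27.7 and 26.3 times in shCTR 1, 2 and 3. The TGFA level was 1.57, 1.44 and 1.41 times that of EGFR in shC8, against 2.57, 3.37 and 3.63 times in shCTR. For HBEGF the mean ratio was 1.78 ± 0.3 in shC8 and 2.55 ± 0.691 in shCTR, and for NRG1 it was 1.74 ± 0.299 and 2.16 ± 0.0337 (SD, n = 3 each). The groups did not overlap for any of the 4 ratios, but for HBEGF the margin was narrow, 2.12 in shC8 1 against 2.15 in shCTR 3. The levels of these 4 ligand genes did not overlap before division by EGFR either. Levels did not overlap for 34.8% of all tested genes, and for 13.1% with shC8 lower. No such share was taken for ratios to EGFR, and NRG1 is not a ligand of EGFR. The log2 ratio to EGFR differed by -2.27 for EREG, -1.10 for TGFA, -0.50 for HBEGF and -0.33 for NRG1. Each of these 4 comparisons gave an exact two-sided permutation p of 0.1, and 0.1 after Benjamini-Hochberg adjustment, which is the smallest this design allows.

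The order of the levels differed between the groups. In shC8 it ran from ERRFI1 (114 FPKM) through EREG (74.7), HBEGF (24.9), NRG1 (24.1), TGFA (20.6), EGFR (14.0), ERBB2 (0.889) and BTC (0.631) to ERBB3 (0.121). The libraries of HBEGF, NRG1 and TGFA overlapped there, and those of the other neighbours did not. In shCTR it ran from EREG (392 FPKM) through ERRFI1 (148), TGFA (48.4), HBEGF (38.8), NRG1 (33.0), EGFR (15.2), BTC (0.964) and ERBB2 (0.856) to ERBB3 (0.0722). In shCTR the neighbours TGFA and HBEGF, HBEGF and NRG1, and BTC and ERBB2 overlapped.

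EREG, AREG and BTC lie next to each other on chromosome 4, beside EPGN, the gene of another EGFR ligand, and a cluster of CXC chemokine genes. Of 26 annotated genes (GENCODE 29) that start within 500 kb of EREG, AREG or BTC, 12 were in the table and 7 were tested. Lower in shC8, beside EREG itself, were 4 of the other 6: MTHFD2L, CXCL1, CXCL2 and CXCL3. Over all tested genes the share lower was 4.94%. MTHFD2L, a mitochondrial folate enzyme gene, was 4.91, 4.06 and 4.005 FPKM in shC8 1, 2 and 3, against 11.2, 9.77 and 8.96 FPKM in shCTR 1, 2 and 3. Its log2 change was -1.04 (SE 0.104, limma adjusted p = 0.0024), with no overlap between the groups. CXCL2 was 4.65, 5.8 and 3.75 FPKM in shC8 and 35.6, 34.3 and 12.1 FPKM in shCTR, a change of -2.18 (limma adjusted p = 0.0138). CXCL1 and CXCL3 changed by -1.62 and -1.79 (limma adjusted p = 0.0245 and 0.0381). Leaving out shCTR 1, shCTR 2, shC8 1, shC8 2 or shC8 3 ended the calls of CXCL1 and CXCL3 (adjusted p up to 0.0888 and 0.12), and without shC8 3 that of CXCL2 ended (0.0582). With the replicate number as a block, the calls of MTHFD2L, CXCL1, CXCL2 and CXCL3 stood (limma adjusted p up to 0.00427). That fit called 10.6% of all tested genes lower. The chemokine genes were all low in shCTR 3 beside the other controls, while EREG was not. CXCL5, which starts between CXCL1 and CXCL3, and PARM1, on the far side of BTC, did not pass, with changes of -0.39 and 0.27. CXCL5 was 0.843, 0.979 and 0.518 FPKM in shC8 and 2.12, 1.90 and 0.363 FPKM in shCTR. Among the fits that leave out a library, CXCL5 was called only without shCTR 3, and PARM1 in none. With the block neither CXCL5 nor PARM1 was called (limma adjusted p = 0.175 and 0.0632). EPGN was under 0.2 FPKM in each library.

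**Figure D4:**
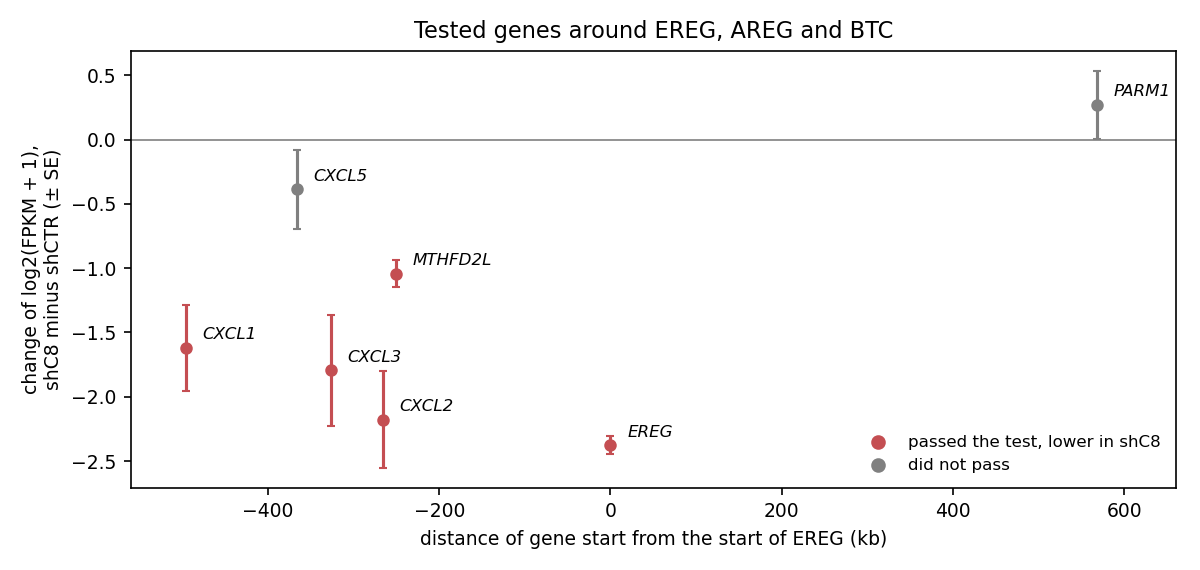
Change of log2(FPKM + 1), shC8 minus shCTR, with its SE, of the 7 tested genes whose start lies within 500 kb of EREG, AREG or BTC, by distance from the start of EREG in kb; red marks genes that passed the test. The 5 genes that passed lie between CXCL1 and EREG, with changes of -1.04 to -2.38, while CXCL5, among them, and PARM1 at the right did not pass.

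The genes whose pattern over the 6 libraries came closest to EREG were TMX3, SLC16A6, MMP1, SERPINB2 and TFPI2, of the tested genes outside the 10. Likeness was the root mean square difference between log2(FPKM + 1) profiles centred on their own means, which was 0.277 for TMX3 and 0.311, 0.342, 0.356 and 0.362 for the others in that order. TMX3, a thioredoxin-like membrane protein gene, was 12.5, 12.2 and 13.3 FPKM in shC8, against 44.8, 48.2 and 50.05 FPKM in shCTR. TFPI2, a gene of a secreted protease inhibitor, was 762, 766 and 715 FPKM in shC8, against 2506, 2894 and 2042 FPKM in shCTR. With 6 libraries in 2 groups, this measure mostly reads the size of the group difference.

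Other genes of the pathway came from lists of roles. Among 6 further ligand and receptor genes only NRG2, a neuregulin gene, was tested. It fell, at 2.98, 3.24 and 3.25 FPKM in shC8 and 4.14, 4.17 and 4.36 FPKM in shCTR. The limma adjusted p for its log2 difference of -0.33 (SE 0.0743) was 0.0315. NRG2 lost its call when any 1 of the 6 libraries was left out (limma adjusted p up to 0.0849). EGF itself averaged 0.656 ± 0.0456 FPKM in shC8 and 0.62 ± 0.137 FPKM in shCTR (SD, n = 3 each).

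None of 7 tested genes for the shedding of ligands passed, and their median log2 change was 0.19, against 0.04 for all tested genes. ADAM17, the main sheddase of TGFA, EREG and HBEGF, was 25.3, 24.9 and 23.0 FPKM in shC8 and 22.9, 22.0 and 20.5 FPKM in shCTR, a change of 0.16 (limma adjusted p = 0.18). ADAM10, ADAM9 and FRMD8, a gene of a protein that stabilises the iRhom-sheddase complex, had changes of 0.38, 0.28 and 0.36 (limma adjusted p = 0.0536, 0.0763 and 0.0956). With the replicate number as a block, these 3 were called higher, where the block called 16.1% of all tested genes higher. Without shC8 1 both ADAM10 and ADAM9 were called higher, in a fit with 699 rises among 11598 tested genes. With a minimum mean of 5 FPKM, ADAM10 was called higher, in a fit with 662 rises among 8553 tested genes.

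Of 13 genes that restrain ERBB receptors or direct their traffic, 1 rose, LRIG3, and 12 did not pass. That share of rises is near the 7.14% over all tested genes. LRIG3, a leucine-rich membrane protein gene, was 3.45, 3.44 and 3.75 FPKM in shC8, against 2.08, 2.22 and 2.09 FPKM in shCTR. Its log2 difference of 0.54 (SE 0.0788) had a limma adjusted p of 0.00821 and was called with any 1 library left out. LRIG1, its relative that is known to promote loss of EGFR from cells, averaged 23.8 ± 6.44 FPKM in shC8 and 24.0 ± 7.61 FPKM in shCTR (SD, n = 3 each). PTPRJ had the largest change of the 13, at 0.73, and did not pass (limma adjusted p = 0.0829), though its groups did not overlap. It was called with the replicate number as a block (limma adjusted p = 0.00166) and, among the fits that leave out a library, only without shCTR 3. With the block, 2 of the 13 were called higher and 1 lower, where it called 16.1% of all tested genes higher and 10.6% lower.

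Of 26 tested adaptor and effector genes, from GRB2 to the ERK kinases, 1 rose, PIK3R1, and 25 did not pass, and the median change was 0.04. That share of rises is under the 7.14% over all tested genes. PIK3R1, which encodes a regulatory subunit of PI3 kinase, was 12.3, 14.8 and 15.7 FPKM in shC8 and 8.61, 9.36 and 11.6 FPKM in shCTR. Its log2 change of 0.49 (limma adjusted p = 0.0464) was not called when shCTR 1, shCTR 2, shC8 2 or shC8 3 was left out (adjusted p up to 0.146). With the block, 5 of the 26 were called higher and 1 lower, shares near or under those of all tested genes in that fit. The list had 0 calls under median-of-ratios scaling, without a trend in limma and without the filter.

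Of 10 transcripts that ERK signalling is known to induce, 4 fell (CCND1, DUSP4, DUSP6 and ETV5) and 6 did not pass. Falls made up 4.94% of all tested genes. The median change was -0.30 and 9 of the 10 changes were below 0, where 4881 of all 11598 tested genes were. DUSP6, a phosphatase that switches ERK off, was 36.2, 40.8 and 29.1 FPKM in shC8, against 77.2, 90.8 and 61.8 FPKM in shCTR. CCND1, the cyclin D1 gene, was 185, 189.7 and 187 FPKM in shC8, against 288, 299 and 332 FPKM in shCTR. Neither gene's groups overlapped, and their log2 changes were -1.09 and -0.71 (limma adjusted p = 0.00873 and 0.00266). DUSP4 changed by -0.66, and ETV5, an ETS factor gene, by -0.27 (limma adjusted p = 0.0187 and 0.0486). ETV5 was called only without shC8 1 among the 6 fits that leave out a library (limma adjusted p up to 0.145), and was not called without the filter or when the column number range entered the model. With the replicate number as a block, 6 of the 10 were called lower, with PHLDA1 and ETV4 added (limma adjusted p = 0.00641 and 0.0453). That fit called 10.6% of all tested genes lower. Without shCTR 2 or shC8 3 only 2 of the 10 were called. The receptor tyrosine kinase gene EPHA2 and the feedback gene SPRY2 had changes of 0.03 and -0.03.

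**Figure D5:**
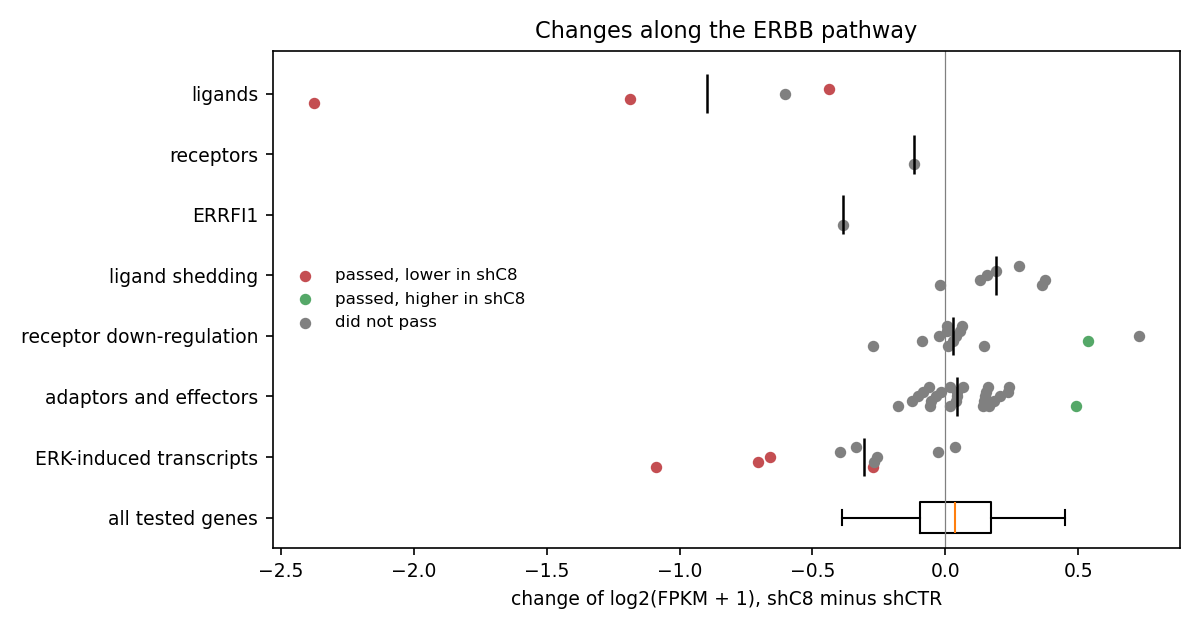
Change of log2(FPKM + 1), shC8 minus shCTR, of tested genes by role; each point is a gene, red where it passed lower in shC8, green where it passed higher and grey where it did not pass, with the list's median as a bar and, at the bottom, a box of all tested genes with whiskers from the 5th to the 95th percentile. The ligand genes and ERK-induced transcripts hold the 7 red points, NRG2 is not drawn, and the medians of the shedding list (0.19) and the adaptor list (0.04) lie above 0.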

How the data were processed

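RNA of 6 U87 cultures (3 shC8 and 3 shCTR) was sequenced as rRNA-depleted stranded libraries, per the labels' protocols. The authors deposited 1 table of FPKM per gene symbol and library. The submitters' processing notes name TopHat, Cufflinks, Cuffdiff and build hg38. The roles of these tools, the annotation, any scaling of libraries and the use of strand are not given in the sources used here. A table of FPKM holds no counts, so no count model or counting interval is given. A change in abundant genes shifts all others, since FPKM divides by a library total.

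Genes were tested on log2(FPKM + 1), two-sided, with limma 3.58.1 (R 4.3.3) with a mean trend, for a mean of at least 1 FPKM, and p-values were adjusted over all 11598 tested genes. This scale understates the change of low genes. Exact permutation tests used SciPy 1.17.1 (Python 3.11.15). The fit was also run on simulated data, with noise drawn independently for each library. That run cannot speak to libraries that deviate together, and no result here rests on it. Alternatives were a pseudocount of 0.1, no filter, a minimum mean of 5 FPKM, 2 other scalings, the replicate block, no trend, the column number range as a term and each library left out in turn. All sample columns were used.

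The genes and lists were chosen with earlier results of these data known. Named are the 10 genes, CASP8, up to 4 called members of each list with the largest change, called genes within 500 kb and the 5 profiles nearest to EREG. Other genes named were chosen after their values were seen. Libraries of the same number deviated together from their group means (correlations over genes of 0.397, 0.266 and 0.291), so the number was used as a block in an alternative fit, a pairing that no label states. Calls come from the fit without a block unless the block is named. Gene positions are from GENCODE 29 and promoter windows from RefSeq (GRCh38.p14).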

Additional observations from a re-analysis of the deposited data

How the results depend on the processing

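Changes of EREG, TGFA, HBEGF, NRG1, EGFR and ERRFI1 were negative in each of the 14 alternatives. CASP8, EREG and TGFA kept their calls in all 14 and NRG1 in 10. EGFR was called in 0 of them, HBEGF in 1 and ERRFI1 in 2. With the replicate block, the count of called genes among the 10 was 5, that of all genes 3086 and that of the pathway lists 19, against 3, 1401 and 7 without it. The block also brought calls for HBEGF (-0.60, limma adjusted p = 0.0171) and ERRFI1 (-0.39, 0.0111). The block changed no call of CASP8, EREG, TGFA, NRG1 or EGFR. The column number range as a term brought a call for ERRFI1 (-0.58, 0.0192). Without a filter the pathway lists held 4 calls, from more genes tested. Leaving out 1 library gave between 477 and 1346 calls over all genes, between 2 and 3 among the 10 and between 3 and 8 in the pathway lists. The NRG1 change lay between -0.48 and -0.36 in those fits, and the cause of its lost calls was not tested. BTC, ERBB2 and ERBB3 had a fitted value only without the filter, and AREG had none. With median-of-ratios scaling the ligand and receptor sums moved by less than 1 SD. Depth was unknown, which limits what can be said of genes under 1 FPKM.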
